A study of Homo sapiens with 4 samples.

Results

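In SAS cells with and without a knockdown of STAU1, 8 genes of the epidermal growth factor (EGF) receptor system were followed, namely the receptors EGFR, ERBB2 and ERBB3 and the ligands AREG, EREG, HBEGF, TGFA and BTC. They were chosen by symbol, and all 8 were matched to 1 Ensembl identifier each among the 67008 identifiers of the count table. SAS is a human oral squamous carcinoma line. The 2 Ctrl libraries came from cells infected with virus carrying an shRNA against luciferase (shLuc), and the 2 shSTAU1 libraries from cells infected in the same way with an shRNA against STAU1, an RNA-binding protein that binds double-stranded RNA. Both groups carry the genotype label WT, and no second STAU1 shRNA, clone or time after infection is given, so an effect of STAU1 loss and an effect of this shRNA cannot be told apart. The libraries were made from total RNA with the TruSeq RNA Exome kit, which enriches coding sequence with probes. The labels call the line C3H 10T1/2, a mouse fibroblast line, but give the organism as human and the cultured cells as SAS. All 10 squamous epithelial markers had a mean over 1 CPM (a count scaled to a common total per library), and they summed to 8147 to 8693 CPM in Ctrl and 9754 to 12964 CPM in shSTAU1. Of these, KRT5 (0.65 on the log2 scale, adjusted p = 0.0408) and SFN (1.43, adjusted p = 0.0285) rose in the edgeR test, and the other 8 did not pass. The 8 fibroblast markers summed to 17.9 to 22.8 CPM in Ctrl and 10.2 to 11.1 CPM in shSTAU1, and 4 of these, COL3A1, LUM, DCN and THY1, had at most 1 count in every library. Most of that sum was COL1A1, which fell (-1.35, adjusted p = 0.036 in the edgeR test), while COL1A2 had a log2 fold change of 1.01 (adjusted p = 0.185). The 4 leukocyte markers summed to 0.15 to 0.18 CPM in Ctrl and 0.71 to 1.15 CPM in shSTAU1, with 2 at no more than 1 count in each library, and the 3 endothelial markers to 15.3 to 18.0 CPM in Ctrl, with 1 shSTAU1 library at 7.44 CPM and the other within the Ctrl range, and with 1 such marker. The part of these differences in the results was not tested.

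EGFR is a receptor tyrosine kinase at the cell surface that forms dimers when a ligand binds, either with itself or with its relatives ERBB2 and ERBB3. ERBB2 has no known soluble ligand, and ERBB3 has a weak kinase and signals mainly through its partners. AREG, EREG, HBEGF, TGFA and BTC are made as membrane-anchored precursors, which metalloproteases such as ADAM17 and ADAM10 cut to release the growth factor. The receptors feed the RAS-MAP kinase and PI3K-AKT routes, and the system is well known for driving the growth of keratinocytes and of squamous carcinomas.

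Of the 8 genes, HBEGF alone passed the threshold, and it was lower in shSTAU1. It fell to 38.1% of its Ctrl level. The 2 shSTAU1 values of EREG and TGFA lay below the 2 Ctrl values and those of ERBB3 above them without passing, while EGFR, ERBB2, AREG and BTC overlapped between the groups. The call is 1 of 8 genes (12.5%), where 2.6% of all 14303 tested genes passed and 1.48% passed with lower values in shSTAU1. All 8 genes had enough counts to be tested. The test was edgeR's quasi-likelihood test on the counts, with TMM scaling and Benjamini-Hochberg adjustment over all tested genes at a threshold of 0.05. CPM values are scaled by the TMM-adjusted library size, so that libraries of unequal depth can be compared. For 2 libraries against 2, the smallest two-sided p of an exact permutation test on 1 gene is 0.333, and the calls rest on a spread shared across genes. STAU1, the targeted gene, had 249 and 251 CPM in Ctrl and 41.6 and 41.5 CPM in shSTAU1. The 4 libraries held 32206655 to 36301574 counts.

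The start regions of HBEGF and of the neighbouring ligand genes EREG and AREG are shown because HBEGF carries the call and because EREG and AREG lie close together on chromosome 4 and had different values. The sequences are from RefSeq on GRCh38.p14 and run from 250 bases before to 50 bases after the annotated start, with the gene's strand read 5′ to 3′. They lie at chr5:140346554-140346853 on the minus strand for HBEGF, at chr4:74364895-74365194 on the plus strand for EREG and at chr4:74444886-74445185 on the plus strand for AREG. Capitals mark matches on either strand to an AP-1 motif (TGANTCA), a cyclic AMP response element or CRE (TGACGTCA), a GC box (GGGCGG) and a TATA box (TATAAA).
HBEGF: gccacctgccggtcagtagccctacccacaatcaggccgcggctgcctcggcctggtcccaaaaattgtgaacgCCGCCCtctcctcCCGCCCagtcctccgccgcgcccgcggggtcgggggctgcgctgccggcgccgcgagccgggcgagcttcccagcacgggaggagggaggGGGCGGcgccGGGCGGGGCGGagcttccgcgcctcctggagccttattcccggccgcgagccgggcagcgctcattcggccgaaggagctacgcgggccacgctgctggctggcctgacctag
EREG: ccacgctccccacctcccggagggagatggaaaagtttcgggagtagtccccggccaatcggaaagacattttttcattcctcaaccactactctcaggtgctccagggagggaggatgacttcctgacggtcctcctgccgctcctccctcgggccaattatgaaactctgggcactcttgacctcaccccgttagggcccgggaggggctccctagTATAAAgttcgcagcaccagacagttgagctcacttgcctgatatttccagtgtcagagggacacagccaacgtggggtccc
AREG: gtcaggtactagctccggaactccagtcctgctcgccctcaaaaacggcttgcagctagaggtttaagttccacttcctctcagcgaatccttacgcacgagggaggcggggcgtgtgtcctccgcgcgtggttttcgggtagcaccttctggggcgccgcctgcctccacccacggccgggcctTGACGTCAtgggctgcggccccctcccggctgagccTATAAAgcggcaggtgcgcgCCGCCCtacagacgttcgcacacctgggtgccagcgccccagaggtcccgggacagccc

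HBEGF held 5 GC boxes, of which 2 share a base, and none of the other 3 motifs. EREG held a TATA box 32 bases before the start and no other match. AREG held a CRE 65 bases, a TATA box 29 bases and a GC box 9 bases before the start. No match of 1 motif overlapped a match of another in these windows. Of the 35116 start regions in the table, 45% held a GC box, 11.5% a TATA box, 7.71% an AP-1 match and 1.85% a CRE. These matches describe letters only. The table lists 2 starts each for EGFR and TGFA. The upstream EGFR start had 3 GC boxes, and the start inside the EGFR gene had 2 AP-1 and 2 TATA matches. TGFA had 4 GC boxes at its upstream start and no match at the other, BTC had 1 GC box, and ERBB2 had 1 AP-1 match. ERBB3 has no start region in this set, so it was not searched.

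**Figure D1:**
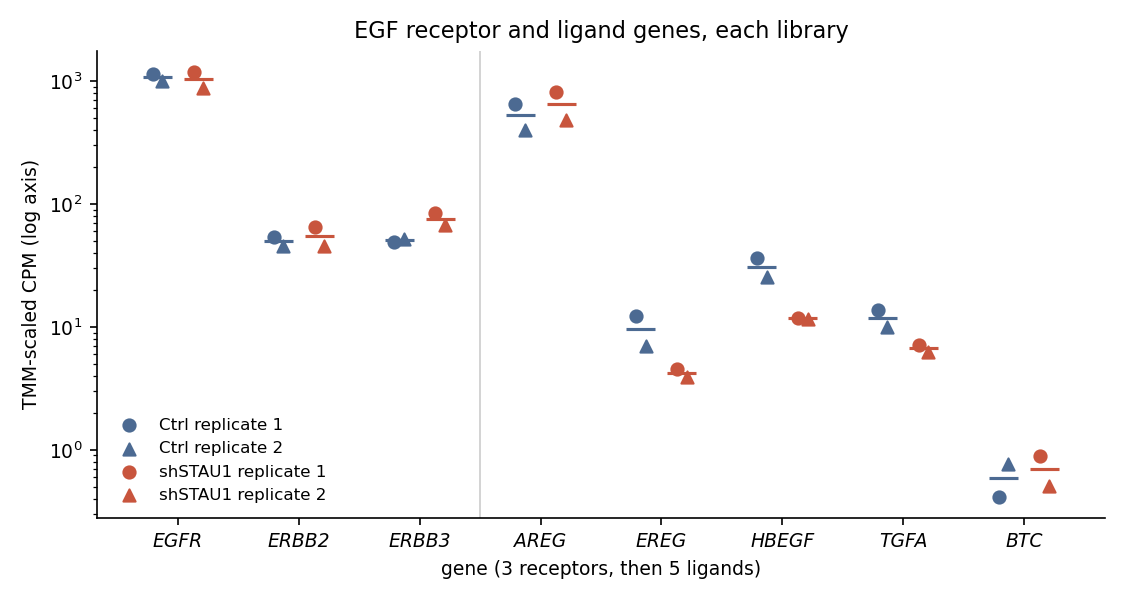
TMM-scaled CPM (log axis) of the 3 receptors and 5 ligands in each library, with circles for replicate 1, triangles for replicate 2 and a line at the mean of each group. The shSTAU1 points of HBEGF, EREG and TGFA all lie below the Ctrl points, those of ERBB3 lie above them, and the other 4 genes overlap.

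EGFR (ENSG00000146648) is encoded on the plus strand of chromosome 7 (GRCh38, 55019021 to 55211628). It had 38680 and 32977 counts in Ctrl and 41314 and 31136 counts in shSTAU1, the most counts of the 8 genes in every library. The highest and the lowest value both came from shSTAU1, so the groups overlapped. The Ctrl libraries averaged 1079 ± 101 CPM and the shSTAU1 libraries 1034 ± 216 CPM (SD, n = 2 each). Its log2 fold change was -0.06 with a standard error of 0.17 (edgeR's quasi-likelihood test, adjusted p = 0.851). The 95% interval ran from -0.45 to 0.33, so a change of EGFR RNA within those bounds remains possible. These bounds are not a limit of detection, and a change beyond them need not have passed. The estimate changed sign to 0.091 once each library was corrected for the length and GC content of transcripts, and no direction is given for it. Exons of EGFR-AS1 on the other strand cover 1.49% of its exon bases.

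ERBB2 (ENSG00000141736), the receptor without a ligand of its own, lies on chromosome 17 from 39687914 to 39730426 on the plus strand. It had 1796 and 1502 counts in Ctrl and 2283 and 1598 counts in shSTAU1. Only shSTAU1 replicate 1 lay clearly above the others, and the other shSTAU1 library was the lowest of the 4 in CPM, at 45.2 CPM. Its log2 fold change was 0.16 (95% interval from -0.31 to 0.62, adjusted p = 0.662 in the same edgeR test). It was -0.12 without shSTAU1 replicate 1. Exons of the genes MIEN1 and PGAP3 on the other strand cover 7.41% of the ERBB2 exon bases, and without a stated strand setting their reads cannot be told apart there.

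ERBB3 (ENSG00000065361), which pairs with the other receptors and links them to PI3K, lies on chromosome 12 from 56076799 to 56103505 on the plus strand. It had 1645 and 1716 counts in Ctrl and 2938 and 2395 counts in shSTAU1. Both shSTAU1 libraries lay above both Ctrl libraries, at 76.1 ± 11.8 CPM against 50.7 ± 2.47 CPM (SD, n = 2 each). The estimate on the log2 scale, 0.59 with a standard error of 0.16, had an unadjusted p of 0.00603 and an adjusted p of 0.0789 in the edgeR test, and so did not pass. The adjusted p ran from 5.27e-05 to 0.492 over 11 alternatives. The estimate ran from 0.43 without shSTAU1 replicate 1 to 0.73 without shSTAU1 replicate 2. There were 23.5 and 19.2 EGFR counts for each ERBB3 count in the Ctrl libraries, and 14.1 and 13.0 in the shSTAU1 libraries.

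Among the ligands, HBEGF (heparin-binding EGF-like growth factor, ENSG00000113070) binds EGFR and ERBB4 and is made quickly by keratinocytes after wounding. It lies on chromosome 5 from 140332843 to 140346631 on the minus strand. It had 1220 and 831 counts in Ctrl and 412 counts in each shSTAU1 library. Every shSTAU1 value lay below every Ctrl value, and the spread was in the Ctrl libraries, with 30.8 ± 7.71 CPM against 11.7 ± 0.12 CPM in shSTAU1 (SD, n = 2 each). HBEGF thus changed by -1.39 on the log2 scale (standard error 0.21, 95% interval from -1.89 to -0.90, edgeR's quasi-likelihood test, adjusted p = 0.0357), a 2.62-fold lower level. In these bulk libraries, fewer cells that make HBEGF and less HBEGF RNA per cell cannot be told apart. The fall was past the threshold with DESeq2, limma-voom, library size scaling and the length and GC correction, and short of it when every gene with a count was tested (adjusted p = 0.0988, in a range from 1.51e-14 to 0.49 over 11 alternatives). Without Ctrl replicate 1 its log2 fold change was -1.12 with an adjusted p of 0.49, in a fit of 3 libraries in which none of 14978 genes passed by edgeR, STAU1 included, and 1502 had an unadjusted p under 0.05.

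EREG (epiregulin, ENSG00000124882), a ligand of EGFR and ERBB4, lies on chromosome 4 from 74365143 to 74388751 on the plus strand. It had 409 and 231 counts in Ctrl and 158 and 139 counts in shSTAU1. Both shSTAU1 libraries lay below both Ctrl libraries, and the Ctrl libraries differed most, at 12.2 and 7.06 CPM. EREG had an estimate of -1.18 on the log2 scale (standard error 0.31, 95% interval from -1.90 to -0.46), with an unadjusted p of 0.00565 and an adjusted p of 0.0769 in the edgeR test (2.32e-05 to 0.492 over 11 alternatives). Without Ctrl replicate 1 it was -0.74, and without Ctrl replicate 2 it was -1.52.

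TGFA (transforming growth factor alpha, ENSG00000163235), an EGFR ligand that keratinocytes make for themselves, lies on chromosome 2 from 70447280 to 70554193 on the minus strand. It had 464 and 328 counts in Ctrl and 250 and 223 counts in shSTAU1. The groups did not overlap, with 11.9 ± 2.67 CPM for Ctrl against 6.75 ± 0.62 CPM for shSTAU1 (SD, n = 2 each). TGFA had an estimate of -0.82 on the log2 scale (standard error 0.24, 95% interval from -1.38 to -0.26), with an unadjusted p of 0.0101 and an adjusted p of 0.0961 in the edgeR test (0.00104 to 0.515 over 11 alternatives). The estimate ran from -1.03 without Ctrl replicate 2 to -0.58 without Ctrl replicate 1.

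AREG (amphiregulin, ENSG00000109321), an EGFR ligand of low affinity, lies on chromosome 4 from 74445134 to 74455009 on the plus strand. It had 22039 and 13086 counts in Ctrl and 28583 and 17038 counts in shSTAU1. In each group replicate 1 was far above replicate 2, and the groups overlapped, at 528 ± 181 CPM for Ctrl against 652 ± 240 CPM for shSTAU1 (SD, n = 2 each). AREG's log2 fold change of 0.30 (standard error 0.29, 95% interval from -0.38 to 0.99, adjusted p = 0.553 from the edgeR test) was within the spread between replicates. Its sign turned without shSTAU1 replicate 1 (-0.12) and without Ctrl replicate 2 (-0.0050), and without shSTAU1 replicate 2 it was 0.63. Leaving out 1 library also leaves the replicate numbers unequal between the groups. Each shSTAU1 library was higher than the Ctrl library of the same number, at 821 against 655 CPM and 482 against 400 CPM. With a block on replicate number the estimate was 0.30 (standard error 0.11). No label says that these numbers mark a batch, so no direction is given.

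BTC (betacellulin, ENSG00000174808), a ligand of EGFR and ERBB4, lies on chromosome 4 from 74744759 to 74794686 on the minus strand and was close to the limit of what these libraries can measure. It had 14 and 25 counts in Ctrl and 31 and 18 counts in shSTAU1. The lowest and the highest library had exact 95% Poisson intervals of 7.65 to 23.5 and 21.1 to 44.0 counts, which cover counting error only. BTC's log2 fold change of 0.25 had a 95% interval from -1.13 to 1.62 (adjusted p = 0.83 from the edgeR test), which takes in differences of over 2-fold either way. Without shSTAU1 replicate 1 the estimate was -0.20.

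**Figure D2:**
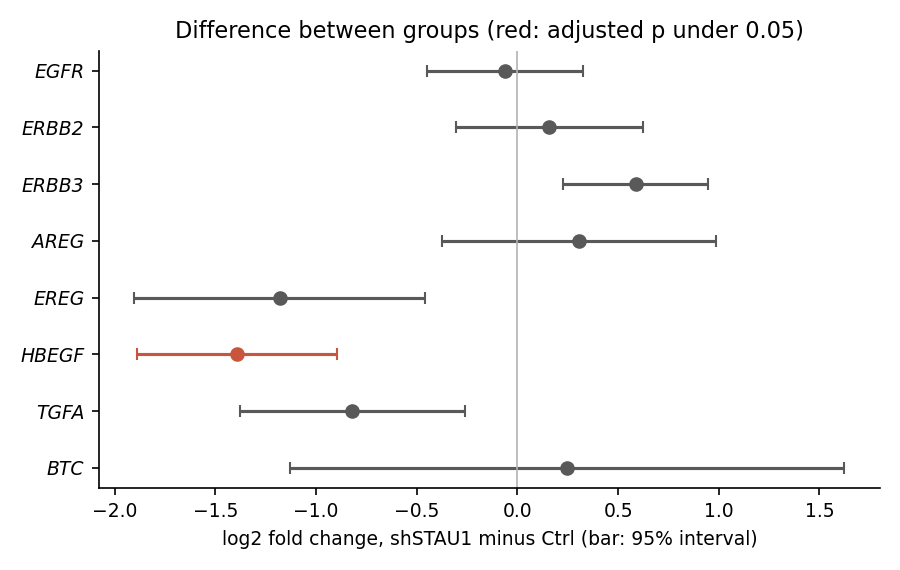
Log2 fold change of each gene, shSTAU1 minus Ctrl, with its 95% interval from edgeR's quasi-likelihood fit of all 4 libraries. HBEGF, in red, has an adjusted p under 0.05, and the intervals of ERBB3, EREG and TGFA, which are not adjusted for the number of genes tested, also leave out 0.

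Read against all tested genes, the groups were apart in 4 of the 8 members, 1 higher and 3 lower, and in 56.6% of all tested genes, a share near that of the members. An unadjusted p under 0.05 was reached by the same number, 4 of 8, where 24.5% of all tested genes reached it. With DESeq2, which called 10.1% of all tested genes, ERBB3 (adjusted p = 0.0218), EREG (0.0112) and TGFA (0.0423) passed together with HBEGF (1.18e-06). The median log2 fold change was 0.16 for the 3 receptors and -0.82 for the 5 ligands, and 0.0059 for all tested genes.

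EREG, AREG and BTC sit in a cluster of ligand genes on chromosome 4, with EPGN (epigen, another EGFR ligand) before EREG. The gap between EREG and AREG is 56.4 kb, and that between AREG and BTC is 290 kb. The neighbours EREG and AREG had different ratios in the 2 groups, with 53.9 and 56.6 AREG counts for each EREG count in Ctrl and 181 and 123 in shSTAU1. The corresponding ratio of AREG to HBEGF counts was 18.1 and 15.7 in Ctrl and 69.4 and 41.4 in shSTAU1, and that of AREG to TGFA counts was 47.5 and 39.9 against 114 and 76.4. Each of these 3 ratios was higher in every shSTAU1 library than in any Ctrl library. They share the AREG count and so are not 3 separate observations. As single genes, 56.6% of all tested genes were apart between the groups. The ratio of HBEGF to EREG counts, at 2.98 and 3.60 in Ctrl and 2.61 and 2.96 in shSTAU1, was narrowly lower in every shSTAU1 library. It differed less between the group means than between the 2 Ctrl libraries. The ratio of HBEGF to TGFA counts was 2.63 and 2.53 in Ctrl and 1.65 and 1.85 in shSTAU1, likewise lower in every shSTAU1 library. These ratios are taken within a library and do not depend on its scaling. They are given as a description, with no test.

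To compare levels between genes, CPM were divided by the length of the merged exons of each gene in GENCODE 29. On this scale AREG stood first in Ctrl with 320 ± 110 CPM per kb, followed by EGFR with 86.2 ± 8.08 and HBEGF with 10.2 ± 2.55. ERBB3 (5.61 ± 0.27) and ERBB2 (4.81 ± 0.52) came next, then TGFA (2.40 ± 0.54), EREG (1.68 ± 0.63) and BTC (0.21 ± 0.087 CPM per kb, SD, n = 2 each). TGFA and EREG were the only neighbours in this order whose Ctrl libraries overlapped. In shSTAU1 the level of HBEGF was 3.89 ± 0.041 CPM per kb, below ERBB3 (8.42 ± 1.30) and ERBB2 (5.37 ± 1.39), so HBEGF held rank 3 in Ctrl and rank 5 in shSTAU1. No neighbours overlapped in shSTAU1. The order below EGFR depends on the length used. How well the probes captured each gene is not known, and no length scaling corrects for it. The order is thus one of captured counts. Per kb of coding sequence, the part the kit enriches, HBEGF and ERBB3 overlapped in shSTAU1 (18.8 ± 0.20 and 18.9 ± 2.92 CPM per coding kb). HBEGF lay above ERBB2 there (14.7 ± 3.82) without overlap and held rank 4, so its order against ERBB2 in shSTAU1 reversed. EREG, ERBB2 and TGFA overlapped with a neighbour in 1 group or the other.

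AREG RNA made up 95.3% to 95.9% of the summed level of the 5 ligands per kb of merged exons in Ctrl, and 98.0% to 98.7% in shSTAU1. HBEGF came second, with 2.90% and 3.31% in the Ctrl libraries and 0.78% and 1.29% in the shSTAU1 libraries. The share of HBEGF was thus lower in both shSTAU1 libraries, and so were those of TGFA (0.67% and 0.79% against 0.29% and 0.43%) and EREG (0.51% and 0.48% against 0.16% and 0.23%). Per kb of coding sequence the share of AREG was 87.3% to 88.6% in Ctrl and 94.0% to 96.1% in shSTAU1, and the 3 others were again lower in shSTAU1. These are shares of RNA as captured by the probes, with no correction for unequal capture between genes. The amount of released protein was not measured.

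**Figure D3:**
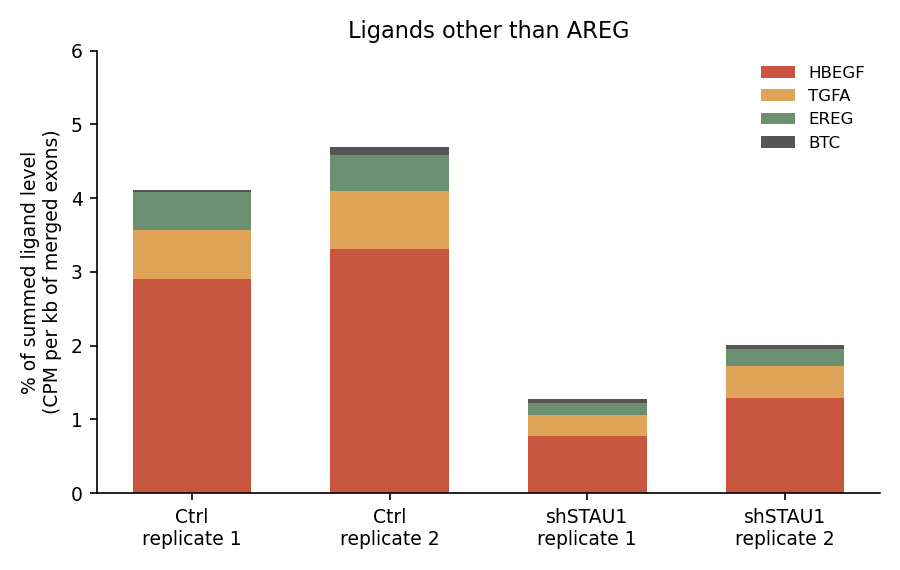
Share of HBEGF, TGFA, EREG and BTC in the summed level of the 5 ligands in each library, in percent of CPM per kb of merged exons, with AREG making up the rest. The 4 ligands together are a smaller share in both shSTAU1 libraries, and HBEGF is the largest part of each bar.

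AU-rich stretches in 3′ untranslated regions are known to shorten the life of many growth factor RNAs. The pentamer ATTTA, searched on the transcript strand of 1 coding transcript a gene in GENCODE 29, occurred 20 times in EREG, 13 times in TGFA, 12 times in BTC, 9 times in EGFR, 5 times in HBEGF, 4 times in AREG, 2 times in ERBB3 and not at all in ERBB2. Per kb of 3′ untranslated region this was 14.9 in AREG, 6.26 in BTC, 5.07 in EREG, 3.63 in TGFA and 3.43 in HBEGF. Of 11818 tested genes with such a region, of median length 1109 bases, 70.7% held the pentamer.

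The 7-base words AAGAGAA and AGAGAAA were looked for as well, because they were picked in an earlier scan of these same fold changes, so that their presence is no independent evidence. HBEGF, whose 3′ untranslated region is 1456 bases long, held neither, nor did AREG, BTC, ERBB2 and ERBB3. EREG held an 8-base match to both words in exon 5 of 5, TGFA held 2 matches to the first word in exon 6 of 6, and EGFR held 1 in exon 28 of 28. EREG, TGFA and EGFR have the longest 3′ untranslated regions of the 8 genes, at 3943, 3579 and 6011 bases. The next longest is that of BTC, with 1918 bases. Either word occurs in 33% of the tested genes with such a region, of median length 1109 bases. The sites are shown, with the word in capitals, as the only matches among the 8 genes. They lie on GRCh38 at chr4:74386570-74386591 (plus strand, EREG), chr2:70450348-70450368 and chr2:70449542-70449562 (minus strand, TGFA) and chr7:55209987-55210007 (plus strand, EGFR).
EREG: taaaaacAAGAGAAAagaaaaa
TGFA, first site: tagctttAAGAGAAgctgtat
TGFA, second site: tcccctcAAGAGAAggagcaa
EGFR: ggtgaagAAGAGAAgcatcgt

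The part of these words, present or absent, in the values of HBEGF, EREG, TGFA and EGFR was not tested.

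Of 7 further genes of the family, 5 had too few counts to be tested. ERBB4, the remaining receptor, had 0 and 3 counts in Ctrl and 12 and 1 counts in shSTAU1. EGF had 4 to 9 counts, NRG4 1 to 7 and EPGN 0 to 2 in the 4 libraries, and NRG3 was listed at 0. A 0 in this table need not mean that a gene is silent, as HRAS, PTPRK and IER3 were also listed at 0 in every library. NRG1, a ligand of ERBB3, had 4105 and 4336 counts in Ctrl and 2946 and 3207 in shSTAU1, lower in both, with a log2 fold change of -0.54 that did not pass (adjusted p = 0.0671 from the edgeR test). NRG2 had 34 and 55 counts in Ctrl and 20 and 28 in shSTAU1 (log2 fold change -0.97, adjusted p = 0.271).

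Of the 6 genes that shed the ligands or carry the protease, 1 passed and 5 did not, and 4 had an unadjusted p under 0.05, where 2.6% and 24.5% of all tested genes did. ADAM9, a metalloprotease that can cut HBEGF, fell from 989 ± 100 CPM to 561 ± 26.4 CPM (SD, n = 2 each), with a log2 fold change of -0.82 (edgeR test, adjusted p = 0.0357). ADAM10, which sheds EGF and BTC, had a log2 fold change of -0.68 (adjusted p = 0.0893). ADAM17, the main protease for AREG, EREG, HBEGF and TGFA, had 160 and 129 CPM in Ctrl and 182 and 144 CPM in shSTAU1, so the groups overlapped (log2 fold change 0.17, adjusted p = 0.557). ADAM12 had 46.5 and 66.9 CPM in Ctrl and 13.5 and 33.4 CPM in shSTAU1 (log2 fold change -1.27, adjusted p = 0.102). RHBDF1 and RHBDF2, the iRhoms that bring ADAM17 to the cell surface, had log2 fold changes of -0.80 (adjusted p = 0.193) and 0.27 (adjusted p = 0.764).

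Over all 7 lists of other pathway genes, 72 of 83 could be tested, 0 passed with higher values and 3 passed with lower values (4.17%, against 2.6% of all tested genes), by edgeR's quasi-likelihood test. At an unadjusted p under 0.05 there were 7 higher and 16 lower, 23 of 72, where 24.5% of all tested genes had such a p, and the median log2 fold change of the 72 was -0.018. Beside ADAM9 the genes that fell were SH3KBP1 and DUSP6. SH3KBP1 (CIN85), an adaptor that joins CBL to endocytosis of the receptor, had 111 and 108 CPM in Ctrl and 32.7 and 53.4 CPM in shSTAU1 (log2 fold change -1.35, adjusted p = 0.0358). DUSP6, a phosphatase of ERK that ERK signalling induces, had 46.2 and 34.1 CPM in Ctrl and 19.6 and 18.8 CPM in shSTAU1 (log2 fold change -1.07, adjusted p = 0.0366), and exons of a gene on the other strand cover 40.5% of its exon bases. None of the 10 tested adaptors, 11 tested RAS-MAP kinase genes and 9 tested PI3K-AKT and STAT genes passed, where 2, 5 and 2 had an unadjusted p under 0.05 (24.5% of all tested genes). Of the 16 tested inhibitors, ubiquitin ligases and endocytosis genes SH3KBP1 alone passed, and 11 had estimates above 0. At an unadjusted p under 0.05 there were 0 higher and 2 lower. Of the 18 tested ERK-responsive targets 1 passed, and 12 had estimates below 0 and 6 above. At an unadjusted p under 0.05 these targets had 1 higher and 6 lower, where 24.5% of all tested genes had such a p. Their median log2 fold change was -0.11, and that of all tested genes 0.0059. Without Ctrl replicate 1 or without Ctrl replicate 2, none of the pathway genes passed by edgeR, and 9 and 13 of them had an unadjusted p under 0.05. Of all genes tested in these fits, 0 of 14978 and 64 of 14981 passed, and 1502 and 1974 had an unadjusted p under 0.05.

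**Figure D4:**
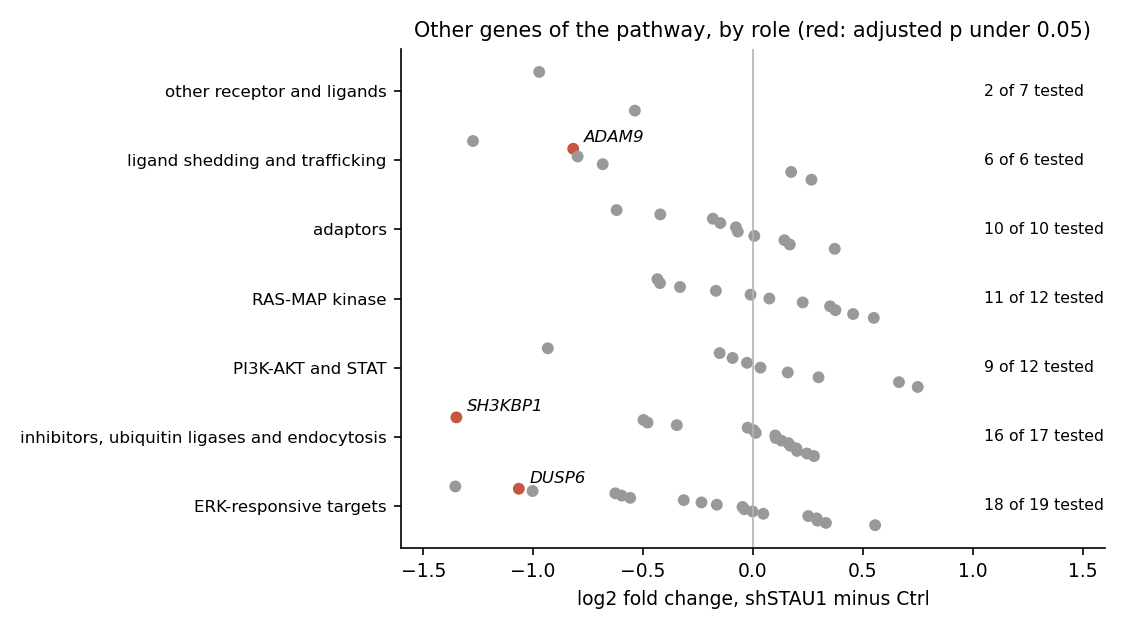
Log2 fold change (shSTAU1 minus Ctrl) of each tested gene in the 7 lists of other pathway genes, 1 point a gene, grouped by role, with the number tested at the right. ADAM9, SH3KBP1 and DUSP6, in red, have an adjusted p under 0.05, and points lie on either side of 0 in every list but that of other receptors and ligands.

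The genes whose pattern over the 4 libraries lay nearest to that of EGFR were DENND10, CAMK2G and CBARP, with Euclidean distances of 0.030, 0.039 and 0.044 between log2 CPM values centred on their mean. For AREG, the ligand with the highest Ctrl level per kb, they were ENSG00000287562, for which the name table gives no symbol, HCFC1R1 and DIPK1A (0.031, 0.054 and 0.073). With 4 libraries and 14303 genes such near matches describe the pattern only.

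**Figure D5:**
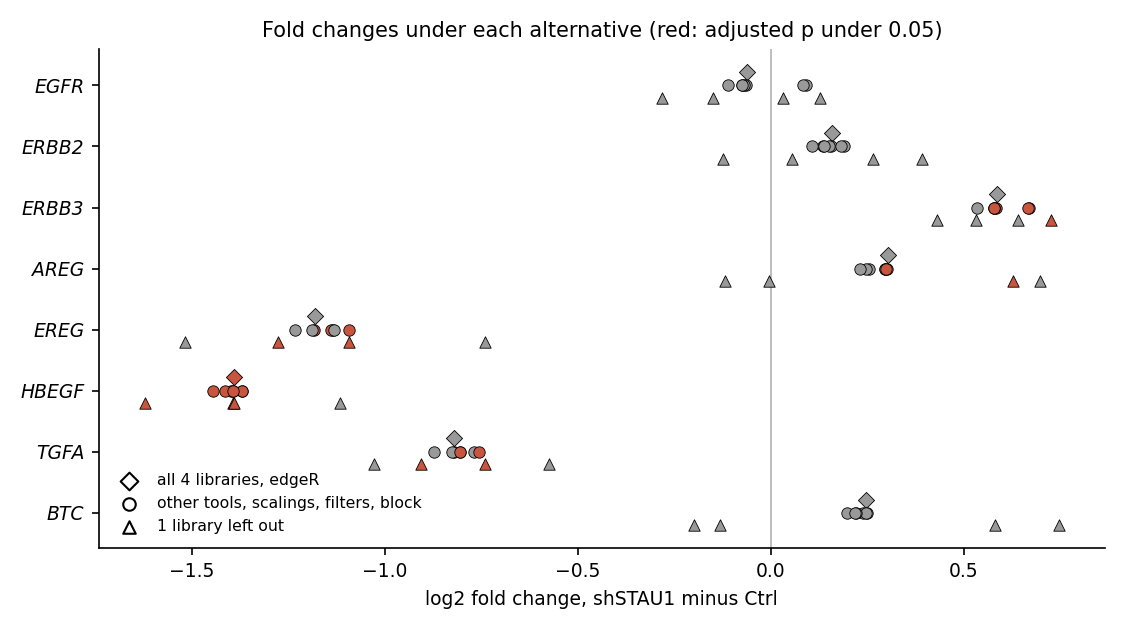
Log2 fold change of each of the 8 genes under each alternative, with diamonds for the fit of all 4 libraries by edgeR, circles for other tools, scalings, filters, corrections and the replicate block, and triangles for fits without 1 library. Red marks an adjusted p under 0.05, HBEGF lies below -1.1 in every fit, and EGFR, ERBB2, AREG and BTC cross 0.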

How the data were processed

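RNA-sequencing libraries of SAS cells, 2 Ctrl and 2 shSTAU1, were used. The authors deposited whole-number counts per Ensembl gene, without normalization and with 1 column a library, and the submitters' processing notes name hg38 and Partek. The aligner, counting program, strand setting and annotation release are not given in the sources used here. No sample column was left unmapped. Positions, lengths and 3′ untranslated regions were taken from GENCODE 29 on GRCh38, which holds 99.9% of the counts, and start regions from RefSeq. Replicates differed by more than sampling noise, with a chi-square of 16.7 per degree of freedom for Ctrl and 39.7 for shSTAU1. The labels do not say that they came from separate cultures, so p-values measure only the spread between these libraries.

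The test was that of edgeR 4.0.16 in R 4.3.3 (filterByExpr, TMM, quasi-likelihood test, Benjamini-Hochberg adjustment over 14303 genes). Standard errors and 95% intervals come from that fit. The models were tested on simulated counts that hold no effect of replicate number. Alternatives used DESeq2 1.42.0, limma-voom (limma 3.58.1), library size, no filter, the replicate number as a block, other thresholds and leaving out each library. A correction of each library for transcript length and GC content (splines, 99.0% of tested genes covered) and the use of coding length were added after the data were examined. The members, the pathway lists and the words were chosen with earlier results of these data known. Genes named are the 8 members, STAU1, pathway genes past the threshold, all genes of the family and shedding lists, and the 3 genes nearest to EGFR and to AREG in pattern. KRT5, SFN, COL1A1, COL1A2, COL3A1, LUM, DCN, THY1, HRAS, PTPRK and IER3 were named after their values were seen. EGFR-AS1, MIEN1 and PGAP3 are named for sharing exon bases with a member.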

Additional observations from a re-analysis of the deposited data

How the results depend on the processing

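HBEGF stayed lower under each of its 11 alternatives, and it lost the threshold without a filter (-1.40, adjusted p = 0.0988) and without Ctrl replicate 1. With 1 library left out, where the lone library of a group is assumed to vary like the pair, the log2 fold changes ran from -1.62 to -1.12 for HBEGF, -1.52 to -0.74 for EREG, -1.03 to -0.58 for TGFA, 0.43 to 0.73 for ERBB3, -0.28 to 0.13 for EGFR, -0.12 to 0.39 for ERBB2, -0.12 to 0.70 for AREG and -0.20 to 0.75 for BTC. Without shSTAU1 replicate 1 the estimates of EREG and TGFA were -1.28 and -0.91, and without shSTAU1 replicate 2 they were -1.09 and -0.74. Those of ERBB3 and AREG were 0.43 and -0.12 without shSTAU1 replicate 1, and 0.73 and 0.63 without shSTAU1 replicate 2. Sign changes in these fits were those of EGFR (0.032 without Ctrl replicate 1 and 0.13 without shSTAU1 replicate 2), ERBB2 (-0.12 without shSTAU1 replicate 1), AREG (-0.0050 without Ctrl replicate 2 and -0.12 without shSTAU1 replicate 1) and BTC (-0.13 without Ctrl replicate 1 and -0.20 without shSTAU1 replicate 1). The length and GC correction turned EGFR to 0.091, and to 0.083 with the block as well. DESeq2 brought ERBB3 (0.58), EREG (-1.18) and TGFA (-0.82) past the threshold, and it gave no adjusted p for BTC. Of 87 values of the members under alternatives, 60 kept their side, 16 gained the threshold, 2 lost it and 9 changed sign. The cause was not tested.

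The count of members past the threshold went from 1 to 4 with DESeq2, with an adjusted p under 0.10 and with a fold of 1.5 at an unadjusted p of 0.05, to 0 without a filter (edgeR; 4 had an unadjusted p under 0.05), and ran from 0 to 5 with 1 library left out. For the pathway lists it went from 3 to 11, 11, 13 and 0 (22 at an unadjusted p under 0.05), and from 0 to 22 with 1 library left out. Over all genes it went from 372 (161 higher, 211 lower) to 1449 (773 higher, 676 lower), 1585, 2098 (925 higher) and 11, and from 0 to 2780. In library size scaling 132 of 404 were higher. Without a filter more genes were tested.

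The replicate numbers are shared between the groups, but no label says that they mark a batch. Between same-numbered libraries, deviations from the group mean correlated at 0.36 over all tested genes and at 0.59 over the 4827 genes with a log2 CPM over 5. Under the block on replicate number, 5 members passed, ERBB3 (0.58), AREG (0.30), EREG (-1.14) and TGFA (-0.81) beside HBEGF, with 25 pathway genes and 4087 of all tested genes (28.6%). With the block and the length and GC correction 4 members passed, ERBB3 (0.67), EREG (-1.09), TGFA (-0.76) and HBEGF. So did 28 pathway genes and 3633 of all tested genes (25.4%). AREG was higher in each shSTAU1 library than in the Ctrl library of the same number, with an adjusted p of 0.0258 under the block and of 0.108 (0.23) with the correction as well.

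Per kb of the longest transcript 6 of the 8 members kept their place in the Ctrl order, and per kb of coding sequence 4 did. BTC, ERBB4, EGF, EPGN and NRG4 have few counts and NRG3 is listed at 0, which limits what can be said of them. The part of depth in this was not tested.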
